A study of Homo sapiens with 12 samples.

Results

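The chaperonin genes described here encode the eukaryotic ring chaperonin CCT, with its subunits TCP1, CCT2, CCT3, CCT4, CCT5, CCT6A, CCT7 and CCT8, and the mitochondrial chaperonin pair HSPD1 and HSPE1. They were taken by symbol, and all 10 were found among the 57353 genes of the count table and passed the filter on low counts. The libraries were RNA-seq of MOLM-13, a human acute myeloid leukemia (AML) cell line that carries an internal tandem duplication of the receptor tyrosine kinase FLT3. Cells were kept for 15 hr with vehicle or with 3 nM quizartinib, a FLT3 inhibitor, either in RPMI (regular medium) or in hBMSC-CM (RPMI mixed with conditioned medium of HS-5, a human bone marrow stromal line). The 4 groups were vehicle in RPMI, quizartinib in RPMI, vehicle in hBMSC-CM and quizartinib in hBMSC-CM, with 3 replicates each and no further allele or agent. One cell line, 1 dose, 1 time point and the conditioned medium of 1 stromal line limit the design as a model of AML in marrow. The study describes its replicates as biological, and the p-values measure the spread between these libraries of one cell line.

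CCT is a stacked double ring in the cytosol, and each ring is built from one copy of every subunit. It closes over newly made actin, tubulin and many proteins with WD40 repeats and releases them folded, and prefoldin hands some of these clients to it. HSPD1, also called HSP60, forms the folding chamber of the mitochondrial matrix, and HSPE1, also called HSP10, is the lid of that chamber. Because CCT is assembled from fixed parts, the levels of its 8 mRNAs relative to each other are of interest beside the level of each.

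Library totals ran from 19966546 to 31546104 counts, and a gene with no count could be present at up to 0.0951 to 0.150 CPM (CPM is the count of a gene per 1000000 counts of a library, and the limit is 3 counts). All 8 myeloid AML markers were expressed, with summed levels of 1034 to 1083 CPM with vehicle and 1787 to 1843 CPM with quizartinib in RPMI, and 1142 to 1159 CPM and 1997 to 2109 CPM in hBMSC-CM. These markers did not move as one. With quizartinib in RPMI, PTPRC, SPI1, LYZ, FLT3 and MEIS1 rose, CD33 (log2 change -0.28) and MPO (-0.41) fell, and HOXA9 hardly changed. In hBMSC-CM LYZ rose most, from a mean of 503 to 1010 CPM. Of 6 stromal markers, COL3A1, LUM and DCN were at 0 in all libraries, and the sum of the list was 0.382 to 5.56 CPM, highest with quizartinib in RPMI, where COL1A1 was at 4.61 ± 0.25 CPM (SD, n = 3). The part of these marker levels in the results was not tested. The sums of the T, B and erythroid cell lists did not pass 0.366, 1.25 and 0.10 CPM. Mitochondrially encoded genes took 0.458% to 1.10% of the counts. In libraries of whole cultures, fewer cells of a type and less RNA per cell cannot be told apart. CPM is a share of a library, so the levels here are not amounts of mRNA per cell. In a separate experiment the study reports less RNA from whole lysates with quizartinib.

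HSPD1 and HSPE1 lie head to head on chromosome 2. HSPD1 is on the minus strand at chr2:197486584-197516737 and HSPE1 on the plus strand at chr2:197500140-197503449 (GENCODE v44, GRCh38). In RefSeq (GRCh38.p14) their nearest start sites were 105 bases apart, at 197500274 and 197500379. The whole stretch between both start sites is shown because the 2 genes share it. It spans chr2:197500275-197500378 on the plus strand, so it reads toward HSPE1, and the capitals mark an E-box (CACGTG), a sequence that MYC with its partner MAX and several other factors can bind. Longer HSPE1 transcript models in GENCODE run through it, and the GENCODE span of HSPD1 includes it too. The upstream stretches of CCT8 and CCT2 follow, because CCT8 was the CCT gene whose level moved least with quizartinib in RPMI and CCT2 one of those that moved most. They span chr21:29073649-29073798 (minus strand) and chr12:69585309-69585458 (plus strand), each ends at the base before the RefSeq start site, and the capitals mark a CCAAT box, which in CCT8 reads ATTGG because it is on the other strand. The GENCODE span of CCT8 reaches 29073797, so nearly all of its stretch lies inside that span. That of CCT2 begins at 69585426, so the end of its stretch does too.

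HSPD1-HSPE1: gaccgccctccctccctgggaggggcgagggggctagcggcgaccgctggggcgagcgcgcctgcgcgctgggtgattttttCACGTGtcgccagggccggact
CCT8: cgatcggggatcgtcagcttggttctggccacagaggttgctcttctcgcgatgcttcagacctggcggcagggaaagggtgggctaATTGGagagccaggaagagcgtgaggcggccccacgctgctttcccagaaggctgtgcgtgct
CCT2: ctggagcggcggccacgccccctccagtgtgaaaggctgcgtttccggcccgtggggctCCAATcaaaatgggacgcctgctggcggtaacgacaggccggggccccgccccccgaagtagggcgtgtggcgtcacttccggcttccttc

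The E-box began at position -22 relative to the HSPE1 start and at position -88 relative to that of HSPD1, read on its strand. RefSeq promoter windows were at hand for 9 of the 10 genes and not for CCT6A. CACGTG was in the windows of 2 of these 9 genes, HSPD1 and HSPE1, and in 7.26% of all 35116 windows of the same length, searched on both strands. CCAAT was in those of TCP1, CCT2, CCT3 and CCT8, against 34.6% of all windows. GAANNTTC, a core of the heat shock element, was in those of TCP1, CCT2 and HSPD1, against 6.77% of all windows, and TTCNNGAA, the other arrangement of that core, in those of CCT4 and HSPD1, against 7.74%. TGACG, the short form of the cyclic AMP response element, was found for 6 genes (TCP1, CCT2, CCT4, CCT8, HSPD1 and HSPE1), against 24.6% of all windows. CCGGAAG, an ETS site, was found for CCT2 alone (10.3% of all windows) and the amino acid response element TTGCATCA for none (0.866%). Some genes had several windows, which overlapped in part, and a gene was counted if any of its windows held the letters. The percentages are of single windows, so they are not on the same scale as the counts of genes. The CACGTG of HSPD1 and HSPE1 is the same stretch between both genes. These matches describe letters in a window and not sites in use.

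The first comparison addressed what FLT3 inhibition did to these mRNAs in regular medium. With quizartinib in RPMI all 10 chaperonin genes were lower than with vehicle. HSPE1 dropped most, to 22.7% of its vehicle level, and CCT8 least, to 89.0%. The other 8 genes fell to between 37.8% (CCT5) and 54.1% (CCT4). In this comparison 39.2% of all 12998 tested genes were called lower and 40.1% higher (edgeR quasi-likelihood test, adjusted p under 0.05). The median log2 fold change of the 10 genes was -1.15, that of all tested genes 0.02.

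CCT5 was among the CCT genes with the largest change. It stood at 871, 892 and 855 CPM in the 3 vehicle libraries in RPMI and at 332, 330.4 and 326 CPM with quizartinib in RPMI. In hBMSC-CM it stood at 916, 986 and 1011 CPM with vehicle and at 652, 630.1 and 603 CPM with quizartinib. The 4 groups did not overlap, and every quizartinib library was below every vehicle library of either medium. The log2 fold change in RPMI was -1.41 ± 0.05 (SE), with an edgeR adjusted p of 6.97e-17. An unnamed lncRNA on the opposite strand overlaps 52.7% of the canonical CCT5 transcript in GENCODE, and no source used here says if reads were counted by strand.

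CCT2 followed it closely, with 564, 579 and 544 CPM with vehicle in RPMI and 221, 212 and 209 CPM with quizartinib. Its hBMSC-CM libraries held 593, 644 and 666 CPM with vehicle and 423, 404 and 385 CPM with quizartinib. The log2 fold change in RPMI was -1.39 ± 0.05 (SE), so CCT2 and CCT5 differed by less than their errors. No other gene overlaps the exons of CCT2, and no CCT2 pseudogene is listed in the table.

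CCT7, CCT6A and CCT3 formed a middle range. CCT7 had 711, 696 and 679 CPM with vehicle in RPMI against 301, 299 and 316 CPM with quizartinib, a log2 change of -1.19 ± 0.04 (SE). CCT6A had 502, 513 and 509 CPM against 234, 233 and 227 CPM, a log2 change of -1.14 ± 0.04 (SE). CCT3 had 574, 573 and 559 CPM against 267, 259 and 269 CPM, a log2 change of -1.10 ± 0.04 (SE). Vehicle and quizartinib libraries of these genes lay far apart in RPMI, with edgeR adjusted p from 2.53e-16 to 5.74e-16.

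TCP1, the subunit for which the complex was first named, and CCT4 fell least among the 7 CCT genes other than CCT8. TCP1 had 806, 799.9 and 779 CPM with vehicle and 398, 385 and 377 CPM with quizartinib, a log2 change of -1.04 ± 0.04 (SE). CCT4 had 486, 479.8 and 486 CPM with vehicle and 264, 260.5 and 261 CPM with quizartinib, a log2 change of -0.89 ± 0.04 (SE). The 95% interval of CCT4 (-0.98 to -0.80) did not reach that of CCT5 (-1.50 to -1.31), so these 2 subunits did not fall by one amount. Genes on the opposite strand overlap 19.3% of the canonical TCP1 transcript (ACAT2) and 19.2% of that of CCT4 (lncRNAs).

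CCT8, singled out after its values were seen, hardly followed. Its 3 vehicle libraries in RPMI had 633, 638 and 624 CPM and its quizartinib libraries 573, 555 and 559 CPM. In hBMSC-CM it had 597, 641 and 639 CPM with vehicle and 566, 542 and 502 CPM with quizartinib. In each medium the quizartinib libraries were below the vehicle libraries, but the gaps were small, and the 2 quizartinib groups overlapped each other. The log2 fold change in RPMI was -0.17 ± 0.05 (SE), with an edgeR adjusted p of 0.00244. That call depended on the scaling between libraries: the change was -0.07 (adjusted p = 0.188) with upper-quartile factors and -0.08 (adjusted p = 0.103) with library size only.

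HSPD1 and HSPE1 both fell. HSPD1 was the most highly counted chaperonin gene in every group but quizartinib in RPMI, where CCT8 was higher (mean 562 against 509 CPM). HSPD1 stood at 1144, 1155 and 1136 CPM with vehicle in RPMI and at 533, 502 and 491 CPM with quizartinib. Its log2 change was -1.17 ± 0.04 (SE). HSPE1 went from 21.0, 19.4 and 19.96 CPM with vehicle to 4.81, 4.42 and 4.49 CPM with quizartinib. That is a log2 change of -2.14 ± 0.09 (SE), with a 95% interval of -2.32 to -1.96, against -1.26 to -1.08 for HSPD1. The change of HSPE1 was the largest of the 10 genes, 4.40-fold lower, and rests on 433 to 615 counts per vehicle library and 92 to 127 counts per quizartinib library.

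HSPE1 counts have limits that bear on its level. Its canonical transcript shares 34.5% of its bases, on the same strand, with the readthrough gene HSPE1-MOB4, which was at 0 in all 12 libraries. That 0 does not show whether reads on the shared bases were counted for HSPE1. The table also lists 26 HSPE1 pseudogenes, of which 13 had a count, and together they held between 12.9% and 51.1% as many counts as HSPE1 itself in a library. With those counts added to HSPE1 (an alternative chosen after the data were seen) its log2 change in RPMI was -1.83. For HSPD1, 17 pseudogenes held 1.55% to 2.07% as many counts as the gene, and for CCT6A 4 held 1.92% to 5.09%. For these reasons the level of HSPE1 is not ranked against that of the other genes here.

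**Figure D1:**
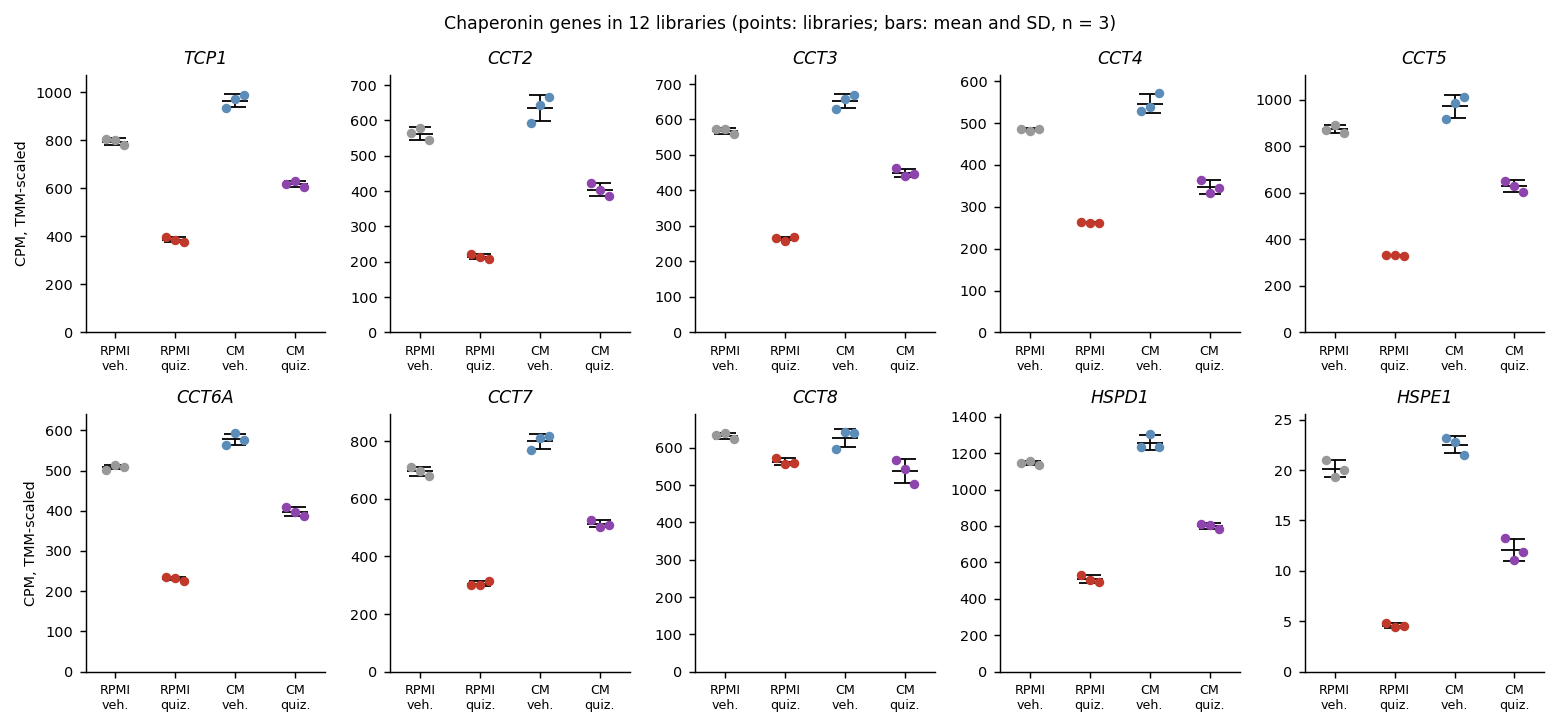
Level of each chaperonin gene in every library, in CPM scaled by TMM, with vehicle (veh.) or quizartinib (quiz.) in RPMI or hBMSC-CM (CM); points are libraries, bars the mean and SD of 3 libraries, and each panel starts at 0. The quizartinib libraries in RPMI are the lowest for every gene but CCT8, whose 4 groups lie between 502 and 641 CPM.

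The second comparison repeated the drug treatment in hBMSC-CM. Again all 10 genes were lower with quizartinib, but 9 of them fell by less than in RPMI. HSPE1 fell to 53.7% of its vehicle level, CCT8 to 85.9%, and the other 8 genes to between 63.6% and 68.9%. In this comparison 33.7% of all tested genes were called lower and 33.4% higher. The median log2 fold change of the chaperonin genes was -0.64, against 0.01 for all tested genes.

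The CCT genes other than CCT8 fell by nearly the same amount in hBMSC-CM. Their log2 changes ran from -0.65 (CCT4, CCT2) to -0.54 (CCT3), an SD of 0.05 across the 7 genes, which is close to the SE of a single gene. In RPMI the SD across the same 7 genes was 0.19. TCP1, for example, had 935, 972 and 988 CPM with vehicle in hBMSC-CM and 617, 629.6 and 604 CPM with quizartinib, a log2 change of -0.65 ± 0.04 (SE). CCT4 had 528, 538 and 571 CPM against 364, 332 and 345 CPM, also a log2 change of -0.65 ± 0.04 (SE). The edgeR adjusted p of the 7 genes ran from 2.29e-11 for TCP1 to 2.94e-10 for CCT3, with CCT4 and CCT7 between 3.42e-11 and 4.09e-11.

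CCT3, CCT6A and CCT7 had the same order of groups in hBMSC-CM. CCT3 had 629.9, 658 and 668 CPM with vehicle and 462, 440.4 and 445 CPM with quizartinib. CCT6A had 563, 592 and 577 CPM with vehicle and 409, 397 and 386 CPM with quizartinib. CCT7 had 769, 812 and 817 CPM with vehicle and 527, 504 and 510.3 CPM with quizartinib. For these genes, too, no quizartinib library reached a vehicle library.

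The mitochondrial pair fell as well in hBMSC-CM. HSPD1 had 1231, 1307 and 1234 CPM with vehicle and 809, 807 and 784 CPM with quizartinib, a log2 change of -0.65 ± 0.04 (SE), the size seen for the CCT genes. HSPE1 had 23.2, 22.8 and 21.5 CPM with vehicle and 13.3, 11.1 and 11.9 CPM with quizartinib, a log2 change of -0.90 ± 0.07 (SE). CCT8 fell by 0.22 on the log2 scale (SE 0.05, edgeR adjusted p = 0.000298), and this call held under each alternative scaling.

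The third comparison set both media against each other in the presence of quizartinib. The levels of 9 of the 10 genes were higher in drug-treated cells in hBMSC-CM than in those in RPMI. HSPE1 was 2.65-fold higher, CCT5 1.91-fold, CCT2 1.89-fold, CCT6A 1.72-fold, CCT3 1.70-fold, CCT7 1.68-fold, TCP1 1.59-fold, HSPD1 1.57-fold and CCT4 1.33-fold. In this comparison 35.5% of all tested genes were called higher and 34.3% lower. The median log2 difference of the chaperonin genes was 0.76, against 0.00 for all tested genes.

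The libraries of both groups were apart for each of these 9 genes. Here and in the comparisons above, the share of all tested genes with libraries apart was not computed. For CCT5 the RPMI libraries reached at most 332 CPM and the hBMSC-CM libraries were at 603 CPM or more. For CCT4, the smallest of the 9 differences, the highest RPMI library was at 264 CPM and the lowest hBMSC-CM library at 332 CPM, with a log2 difference of 0.41 ± 0.04 (SE) and an edgeR adjusted p of 4.2e-08. CCT8 did not pass the test, with a log2 difference of -0.07, a 95% interval from -0.16 to 0.03 and an edgeR adjusted p of 0.209. Its direction turned without the filter on low counts (0.01), and with upper-quartile factors it was called lower in hBMSC-CM (-0.11, adjusted p = 0.0351).

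**Figure D2:**
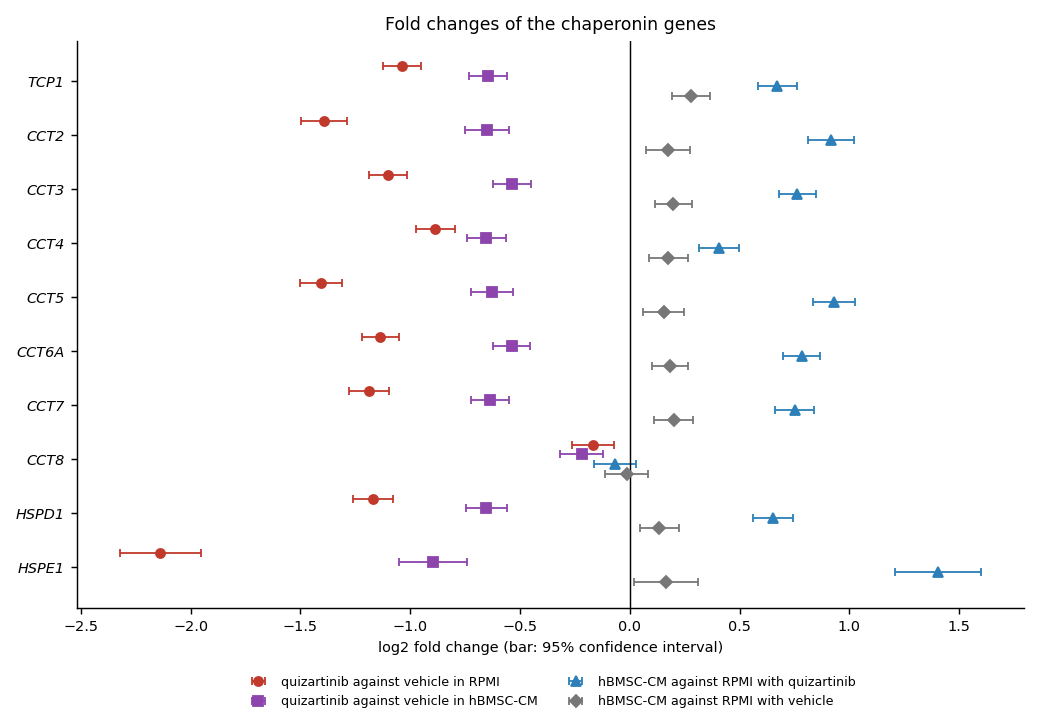
Log2 fold change of each chaperonin gene in 4 comparisons, with 95% confidence intervals from the edgeR model; negative values are lower with quizartinib (circles, squares) or lower in hBMSC-CM (triangles, diamonds). In RPMI the genes spread from -2.14 (HSPE1) to -0.17 (CCT8), while in hBMSC-CM 8 of them lie between -0.65 and -0.54.

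The fourth comparison, between both media with vehicle, showed small differences. Of the 10 genes, 8 were called higher in hBMSC-CM, where 16.6% of all tested genes were called higher and 15.5% lower. TCP1 differed most, with a log2 difference of 0.28 ± 0.04 (SE), or 1.21-fold. The other 7 called genes differed by 0.14 (HSPD1) to 0.20 (CCT7), or at most 1.15-fold. HSPE1 had a log2 difference of 0.16, an edgeR adjusted p of 0.0794 and no call, although the lowest hBMSC-CM library (21.5 CPM) was above the highest RPMI library (21.0 CPM). With pseudogene counts added, HSPE1 passed the test (0.20, adjusted p = 0.0175). CCT8 had a log2 difference of -0.01 with an interval from -0.11 to 0.08.

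The calls of HSPD1 and CCT5 in this comparison were near the threshold and were lost when 1 library was left out, while the differences moved little. Without replicate 3 of vehicle in RPMI, the log2 difference of HSPD1 was 0.13 (edgeR adjusted p = 0.0644) and that of CCT5 0.14 (adjusted p = 0.0523, against 0.15 with all libraries). Without replicate 2 of vehicle in hBMSC-CM, that of HSPD1 was 0.11 (adjusted p = 0.0947). HSPD1 also lost its call with upper-quartile factors (0.11, adjusted p = 0.0587). The difference of CCT8 changed sign without replicate 1 of vehicle in hBMSC-CM (0.02, adjusted p = 0.804).

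Whether quizartinib changed these mRNAs differently in both media was tested with the interaction of drug and medium. It was positive for 9 of the 10 genes, which means a smaller drop in hBMSC-CM, and in this test 26.1% of all tested genes were called higher and 19.2% lower. HSPE1 had the largest value, 1.24 ± 0.12 (SE) on the log2 scale, followed by CCT5 at 0.78 ± 0.06 and CCT2 at 0.74 ± 0.07. CCT6A, CCT3, CCT7 and HSPD1 lay between 0.52 and 0.60. TCP1 at 0.39 ± 0.06 and CCT4 at 0.23 ± 0.06 had the smallest values that passed, the latter with an edgeR adjusted p of 0.00367. For CCT8 the value was -0.05 with an interval from -0.19 to 0.08 (adjusted p = 0.55). The interaction of CCT4 was lower than that of CCT5 without overlap of their intervals (0.11 to 0.36 against 0.64 to 0.91).

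The 4 groups had one order for the 9 genes other than CCT8: vehicle in hBMSC-CM, vehicle in RPMI, quizartinib in hBMSC-CM and quizartinib in RPMI, from high to low. The middle step was tested in a comparison added after the data were seen, quizartinib in hBMSC-CM against vehicle in RPMI. All 10 genes were lower with quizartinib in hBMSC-CM, where 31.6% of all tested genes were called lower and 30.6% higher. HSPE1 stood at 60.2% of the level with vehicle in RPMI, HSPD1 at 69.9%, CCT4 at 71.8%, CCT2 at 71.8%, CCT5 at 72.0%, CCT7 at 73.9%, TCP1 at 77.6%, CCT6A at 78.3%, CCT3 at 79.0% and CCT8 at 85.0%. The median log2 difference was -0.46, against 0.01 for all tested genes. Of the neighbours in the order of these 9 genes, the vehicle groups of both media did not pass the test for HSPE1. For CCT8 neither the 2 vehicle groups nor the 2 quizartinib groups passed it.

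The make-up of the CCT mRNA pool with quizartinib in RPMI differed from that in the other groups. Counts were divided by the length of the canonical transcript and expressed as a share of the sum over the 8 CCT genes in each library, a measure that does not depend on the scaling between libraries. CCT8 took 14.8% ± 0.1 of this sum with vehicle in RPMI and 25.7% ± 0.1 with quizartinib in RPMI (SD, n = 3). In hBMSC-CM its share was 13.0% ± 0.1 with vehicle and 16.5% ± 0.5 with quizartinib. No library of one group reached into another, since CCT8 ranged from 25.66% to 25.88% with quizartinib in RPMI and from 12.94% to 16.80% in all others. Without division by length, CCT8 held 21.9% to 22.1% of the CCT counts with quizartinib in RPMI and 10.8% to 14.1% elsewhere.

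Most other shares moved down as that of CCT8 moved up, as shares of one sum must. With quizartinib in RPMI, CCT2 went from 12.8% ± 0.2 to 9.48% ± 0.20 and CCT5 from 11.5% ± 0.1 to 8.49% ± 0.09. CCT7 went from 16.4% ± 0.2 to 14.03% ± 0.48. TCP1 went from 14.7% ± 0.1 to 13.96% ± 0.26, without overlap of the libraries, and CCT4 went up from 8.85% ± 0.18 to 9.35% ± 0.05. In hBMSC-CM the largest moves beside that of CCT8 were those of TCP1, from 15.9% to 14.9%, and CCT7, from 16.7% to 15.8%.

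**Figure D3:**
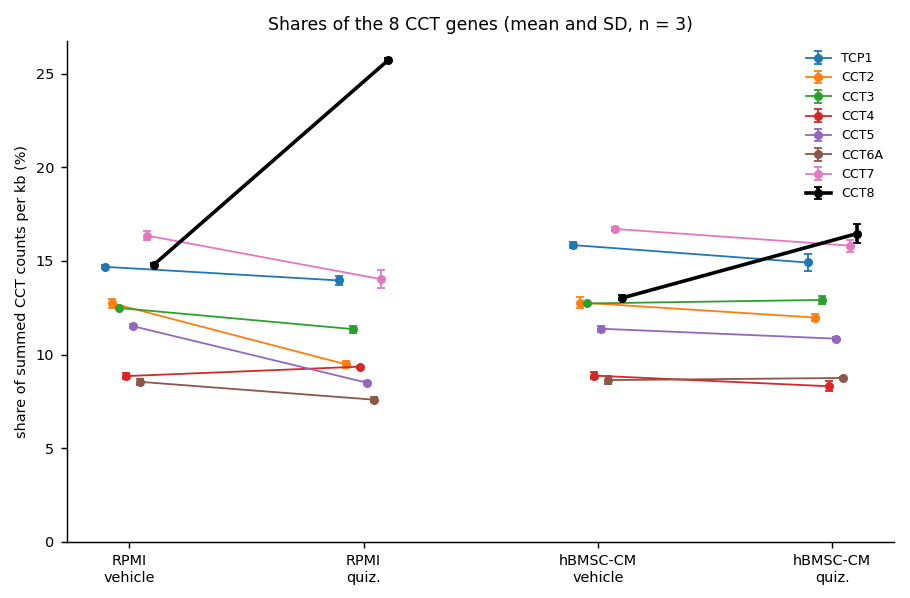
Share of each of the 8 CCT genes in their summed counts per kb of canonical transcript, with bars for the SD of 3 libraries and lines joining vehicle and quizartinib in one medium. CCT8 goes from 14.8% to 25.7% in RPMI and from 13.0% to 16.5% in hBMSC-CM, while the 7 others lie between 7.59% and 16.7%.

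Levels per kb placed CCT8 at the top of the ranking with quizartinib in RPMI and below HSPD1 in the other 3 groups. With vehicle in RPMI the order was HSPD1 (510.0 CPM per kb), CCT7 (377), CCT8 (341), TCP1 (338), CCT2 (293.5), CCT3 (287.5), CCT5 (265), CCT4 (204) and CCT6A (197), with HSPE1 left out for the limits above. The libraries of CCT8 and TCP1 overlapped, and so did those of CCT2 and CCT3. With quizartinib in RPMI, CCT8 was at 303 ± 5.01 CPM per kb (SD, n = 3), above HSPD1 at 227 ± 9.70 and CCT7 at 165 ± 4.95. CCT2 (112 CPM per kb) and CCT4 (110.2) overlapped there. With vehicle in hBMSC-CM, CCT8 at 337 ± 13.4 was below HSPD1 (560.1), CCT7 (433) and TCP1 (410.4), and its libraries overlapped those of CCT2 (331) and CCT3 (329.7). With quizartinib in hBMSC-CM, CCT8 at 289.6 ± 17.5 was below HSPD1 at 356 ± 6.28, and its libraries overlapped those of CCT7 at 278 ± 6.61. The length is that of the canonical transcript in every group, so it sets a gene's place in the order but not its change. CCT5, TCP1 and CCT4 were kept here and in the shares above. Genes on the opposite strand overlap 52.7%, 19.3% and 19.2% of their canonical transcripts, and the strand setting of the counts is not known.

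CCT8 also stood apart across the 12 libraries. Pearson's r of its log2 CPM with that of the other 9 genes was 0.62 to 0.75, while every pair among those 9 had 0.969 or more. These values describe 12 libraries in 4 groups that share their treatment, and carry no test.

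The 10 genes together took 0.602% to 0.619% of all counts with vehicle in RPMI and 0.312% to 0.325% with quizartinib in RPMI. In hBMSC-CM they took 0.652% to 0.692% with vehicle and 0.475% to 0.493% with quizartinib. No 2 groups overlapped. The share of mitochondrially encoded genes was higher with quizartinib in both media. It was 0.683% to 0.790% with vehicle and 1.02% to 1.10% with quizartinib in RPMI, and 0.458% to 0.614% and 0.683% to 0.947% in hBMSC-CM. Its part in the result was not tested.

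HSPE1 had the larger drop of the mitochondrial pair, so the number of chamber counts per lid count was higher with quizartinib. There were 54.4, 59.6 and 56.9 HSPD1 counts per HSPE1 count with vehicle in RPMI and 111, 114 and 109 with quizartinib. In hBMSC-CM there were 53.0, 57.2 and 57.3 with vehicle and 61.1, 73.0 and 65.8 with quizartinib. Vehicle and quizartinib libraries did not overlap in either medium, and the quizartinib libraries in RPMI stood well above the rest. The log2 ratio of HSPE1 to HSPD1 was lower with quizartinib by 0.97 in RPMI (mean -6.80 against -5.83) and by 0.25 in hBMSC-CM (-6.05 against -5.80). An exact permutation test gave two-sided p = 0.1 for each of these and for the medium difference with quizartinib (0.74), the smallest p that 3 against 3 libraries allow, and 0.7 for the medium difference with vehicle (0.03). Adjusted over these 4 tests the exact p was 0.133 for the first 3 and 0.7 for the last. None passed 0.05, and since HSPE1 pseudogenes hold counts too, the ratio is one of counts and not of molecules.

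TCP1 has a head-to-head neighbor too. Its RefSeq start lies 210 bases from that of MRPL18, a mitochondrial ribosomal protein gene on the opposite strand. MRPL18 had 107 ± 5.08 CPM with vehicle and 66.9 ± 1.96 with quizartinib in RPMI, and in hBMSC-CM 120.5 ± 6.76 and 90.8 ± 3.45 (SD, n = 3). Its log2 change was -0.68 with the drug in RPMI and -0.41 in hBMSC-CM, both smaller than those of TCP1 (-1.04 and -0.65).

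Prefoldin and the phosducin-like cochaperones act with CCT. For this and the following lists, percentages beside a count give the share of all tested genes called in the same direction, not a share of the list. Of 9 tested genes in that list, 6 fell and 2 rose with quizartinib in RPMI, where 39.2% of all tested genes fell and 40.1% rose, and their median log2 change was -0.36. PFDN2 (-1.15, adjusted p = 1.34e-12) and PFDN6 (-0.73), both prefoldin subunits, fell most, while PFDN4 (0.49) and PFDN5 (0.29), also prefoldin subunits, rose (edgeR). So prefoldin mRNAs did not move as one. Among treated cells, hBMSC-CM gave higher levels of 6 of the 9 (35.5% of all genes) and a lower level of none (34.3%), led by PFDN2 (0.94) and PFDN1 (0.60). In hBMSC-CM with quizartinib 4 were lower (33.7% of all genes) and 3 higher (33.4%) than with vehicle. Between both media with vehicle 3 were higher (16.6% of all genes) and none lower (15.5%), and 6 had a positive interaction (26.1%) and none a negative one (19.2%).

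Of the chaperonin-like genes, CCT6B is a paralog of CCT6A with its main expression in testis, and MKKS, BBS10 and BBS12 encode chaperonin-like proteins that help assemble the BBSome of the cilium. Of the 4 tested, 3 (CCT6B, BBS10 and BBS12) rose with quizartinib in each medium, against 40.1% of all genes in RPMI and 33.4% in hBMSC-CM. The same 3 were called lower when treated cells in hBMSC-CM were set against those in RPMI, against 34.3% of all genes. BBS10 stood at 18.7 ± 0.20 CPM with vehicle and 39.3 ± 2.91 with quizartinib in RPMI, a log2 change of 1.08, and BBS12 at 5.41 ± 0.28 and 14.02 ± 0.39, a log2 change of 1.37 (SD, n = 3). CCT6B was near the filter on low counts, at 1.14 ± 0.13 and 2.87 ± 0.44 CPM. MKKS had a log2 change of 0.00 (interval -0.15 to 0.15) and no call in any comparison. The interaction was negative for BBS10 (-0.54) and BBS12 (-0.69), against 19.2% of all genes, and none of the 4 passed the test between both media with vehicle.

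Among 23 tested genes of known CCT clients, 17 fell (39.2% of all tested genes) and 6 rose (40.1%) with quizartinib in RPMI, with a median of -0.36. CCNE1 (cyclin E, -3.65) and TUBG1 (gamma-tubulin, -2.15) fell most, and ACTG1 (a cytoplasmic actin, 0.48) and STAT3 (0.19) rose. In hBMSC-CM 17 fell (33.7% of all genes) and 2 rose (33.4%). With quizartinib, hBMSC-CM against RPMI gave 10 higher (35.5% of all genes) and 7 lower (34.3%), with CCNE1 at 2.36, TUBG1 at 0.91, ACTG1 at -0.73 and FZR1, an activator of the anaphase-promoting complex, at -0.64. With vehicle 4 were higher (16.6% of all genes) and 7 lower (15.5%) in hBMSC-CM, and the interaction was positive for 7 (26.1%) and negative for 3 (19.2%). MLST8 and RPTOR, WD40 proteins of the mTOR complex, fell in both media (MLST8 -0.62 and -0.61, RPTOR -0.28 and -0.27), and their interactions were 0.00 (interval -0.22 to 0.23) and 0.01 (-0.13 to 0.15). Actin and tubulin genes have near-identical copies, so their counts are uncertain.

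HSPD1 and HSPE1 work beside other chaperones and proteases of the mitochondrion. Of 14 genes for mitochondrial HSP70, HSP90, their cofactors and matrix or inner membrane proteases, 12 fell (39.2% of all tested genes) and 2 rose (40.1%) with quizartinib in RPMI, with a median of -1.0. HSPA9 (mitochondrial HSP70, -1.53) and GRPEL2 (its nucleotide exchange factor, -1.52) fell most, and CLPX (0.29) and SPG7 (0.22), subunits of 2 proteases, rose. In hBMSC-CM 11 fell (33.7% of all genes) and 2 rose (33.4%). With quizartinib 12 were higher in hBMSC-CM (35.5% of all genes), led by GRPEL1 (1.21) and DNAJA3 (1.09), cofactors of HSPA9, and 1, SPG7 (-0.18), was lower (34.3%). With vehicle 8 were higher (16.6% of all genes) and 1 lower (15.5%), and 11 had a positive interaction (26.1%) and none a negative one (19.2%).

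Of 26 tested genes of the cytosolic HSP70 and HSP90 machinery, 21 fell (39.2% of all tested genes) and 2 rose (40.1%) with quizartinib in RPMI, with a median of -0.76. FKBP4, a cochaperone of HSP90, had the largest drop (-2.19), followed by HSPA8, the constitutive HSP70 (-1.83), and DNAJB6 (0.26) and ST13 (0.14) rose. In hBMSC-CM 23 fell (33.7% of all genes) and none rose (33.4%). With quizartinib 20 were higher (35.5% of all genes) and 2 lower (34.3%) in hBMSC-CM, with FKBP4 at 1.86, STIP1 at 1.08, HSPB1 at -0.36 and DNAJB6 at -0.26. With vehicle 13 were higher (16.6% of all genes) and none lower (15.5%), and the interaction was positive for 14 (26.1%) and negative for 2 (19.2%). HSF1, the main transcription factor of heat shock genes, had 122 ± 5.07 CPM with vehicle and 111 ± 9.97 with quizartinib in RPMI, a log2 change of -0.14 (edgeR adjusted p = 0.024). These libraries overlapped. In hBMSC-CM the log2 change of HSF1 was also -0.14 (edgeR adjusted p = 0.0228).

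**Figure D4:**
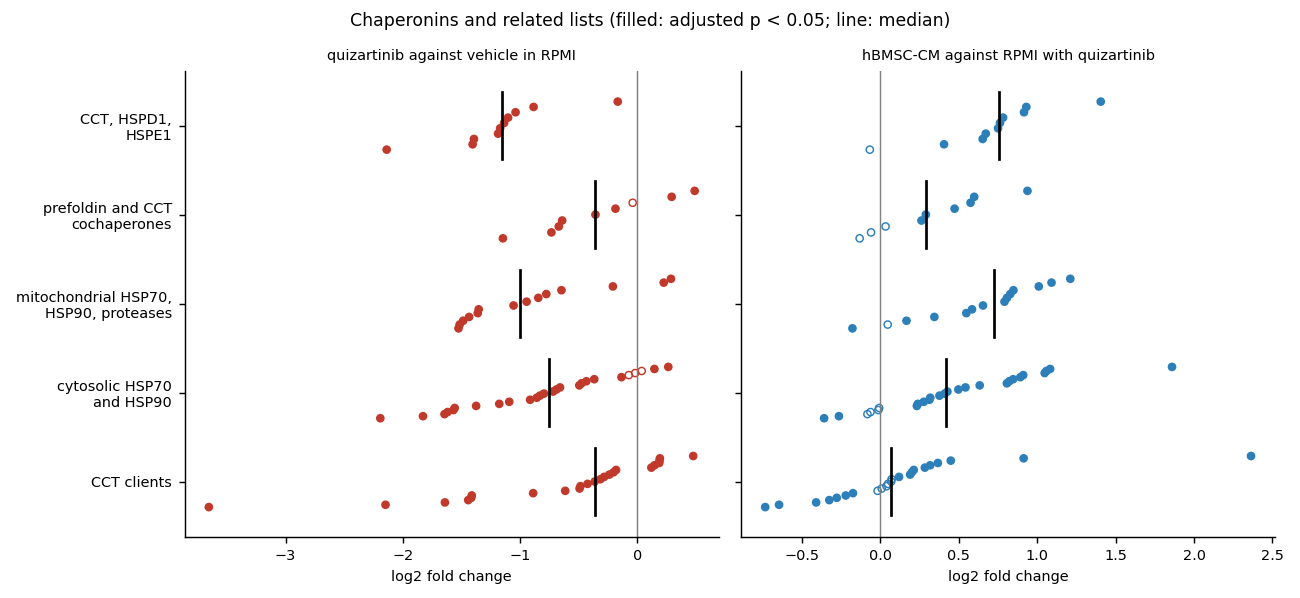
Log2 fold changes of the chaperonin genes and 4 related lists for quizartinib in RPMI (left) and for hBMSC-CM against RPMI with quizartinib (right); each point is a gene, filled where its adjusted p was under 0.05, and vertical bars are medians. The medians on the left are -1.15 for the chaperonin genes, -0.36 for prefoldin and cochaperones, -1.0 for the mitochondrial list, -0.76 for the cytosolic list and -0.36 for CCT clients.

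The genes outside the 10 whose pattern over the 12 libraries was most like the mean of the 8 CCT genes were VRK1 (a nuclear kinase), CACYBP, GATM, GGH (gamma-glutamyl hydrolase) and POFUT1, with Pearson's r from 0.997 to 0.999 on log2 CPM. Their log2 changes with quizartinib in RPMI ran from -1.39 (CACYBP) to -0.90 (GGH). For the mean of HSPD1 and HSPE1 they were SF3A3 (a splicing factor), IVNS1ABP, NAA50, ECE1 and NOL11 (a nucleolar protein), with r from 0.998 to 0.999 and changes from -3.0 (ECE1) to -0.88 (SF3A3). By Spearman's rho, 0 of these 5 genes were among the 5 listed as most like for either mean. Those lists hold ties, with a rho of 1 for each gene listed for the CCT mean. They therefore cannot tell whether the names depend on the measure. The 12 points are 4 groups of 3 libraries.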

How the data were processed

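Gene counts of 12 libraries were analyzed, with groups and replicate numbers read from the labels. The authors trimmed adapters, aligned reads to the human genome (hg38) with STAR 2.6.0a, per the labels and their methods, and deposited raw counts per gene name as whole numbers, with no normalization. Reads with several placements cannot be reassigned from such counts, and the strand setting is not given in the sources used here.

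Genes were kept where both the mean count and the mean CPM reached 1 (12998 of 30572 with a count). Counts were scaled by TMM (factors 0.956 to 1.04) and tested with edgeR 4.0.16 (quasi-likelihood, two-sided) in R 4.3.3, in 1 model of 4 group means with 8 residual degrees of freedom. P-values were adjusted by Benjamini-Hochberg over all tested genes, with a threshold of 0.05. There were 5 contrasts plus 1 added after the data were seen. The script was tested on simulated data. Replicates differed by more than counting noise. Alternatives used limma 3.58.1, DESeq2 1.42.0, other scalings and filters, a replicate block and leaving out each library. Intervals cover 95%. Correlations used log2 CPM with a prior count of 2. Gene models were GENCODE v44, and promoter windows RefSeq GRCh38.p14.

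The members and lists were chosen with earlier results of these data known. Named were all members, up to 2 called genes per list and direction with the largest changes and a mean CPM of at least 10 (in quizartinib against vehicle in RPMI and in hBMSC-CM against RPMI with quizartinib), the 5 most like genes, and a fixed list (HSPE1-MOB4, MRPL18, CCT6B, MKKS, BBS10, BBS12, HSF1, MYC, MLST8, RPTOR).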

Additional observations from a re-analysis of the deposited data

Results flagged for a closer look

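For 9 of the 10 chaperonin genes the effect of quizartinib differed between both media by a test of the difference itself, the interaction term of the edgeR model over 12 libraries. The interaction on the log2 scale was 0.39 for TCP1, 0.74 for CCT2, 0.57 for CCT3, 0.23 for CCT4, 0.78 for CCT5, 0.60 for CCT6A, 0.55 for CCT7, 0.52 for HSPD1 and 1.24 for HSPE1. Each was positive, so the drop with quizartinib was smaller in hBMSC-CM, and the adjusted p ran from 2.81e-09 for CCT5 to 0.00367 for CCT4. Of all tested genes, 26.1% were called in this direction. For CCT8 the difference did not pass the test (-0.05, interval -0.19 to 0.08).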

How the results depend on the processing

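The median log2 fold change of the 10 genes moved most with the scaling between libraries and the filter. With upper-quartile factors it was -1.05 in RPMI, -0.56 in hBMSC-CM, 0.71 for the media with quizartinib and -0.40 for quizartinib in hBMSC-CM against vehicle in RPMI. With library size only it was -1.06, -0.54 and, for the last of these, -0.37. With no filter it was -1.26 in RPMI, 0.83 for the media with quizartinib and 0.63 for the interaction, and with filterByExpr -1.21 in RPMI. The median of all genes shifted by 0.10 with upper-quartile factors in RPMI (57.6% of calls higher, against 50.6%), by 0.10 with library size only in hBMSC-CM (62.8%, against 49.8%) and by -0.10 without the filter in RPMI. Upper-quartile factors gave 60.03% higher in hBMSC-CM, library size only 62.1% for the added comparison (against 49.2%), and no filter 70.6% for the interaction (against 57.6%). CCT8 turned sign without the filter for the media with quizartinib (0.0105) and for the interaction (0.0201). For the media with vehicle it ranged from -0.0297 to 0.0196 without single libraries and turned without replicate 1 of vehicle in hBMSC-CM (0.0196). At an adjusted p of 0.01, 2692 genes were called for the media with vehicle, against 4174. The largest difference between groups in a CCT gene's share, that of CCT8, was 12.7 percentage points, and 11.2 without division by length. Without single libraries, the ratio of HSPE1 to HSPD1 for the media with vehicle ranged from -0.0084 to 0.0612 and turned sign without replicate 2 of vehicle in RPMI (-0.0047) or replicate 1 of vehicle in hBMSC-CM (-0.0084). The causes were not tested.

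Replicate numbers did not pair the libraries: deviations of libraries with the same number correlated from -0.227 to 0.0446, and fits with a replicate block called 10, 10, 9, 8 and 9 chaperonin genes in the first 5 comparisons, as without it. Over all alternatives the number of chaperonin genes called was 9 to 10, 10, 9 to 10, 6 to 9 and 9, and 10 in the added comparison. With the main settings, 39.2% and 33.7% of all tested genes were called lower with quizartinib in RPMI and in hBMSC-CM. For the media with quizartinib, the media with vehicle and the interaction, 35.5%, 16.6% and 26.1% were called higher. In the added comparison 31.6% were called lower. Without single libraries, all genes called for the media with vehicle ranged from 3278 to 4338, against 4174. Depth limits HSPE1, with 92 counts in its lowest library, and CCT6B, with 14.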

Other observations

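MYC, a transcription factor that can bind the E-box, was named by the rule. It was at 429 ± 14.7 CPM with vehicle and 50.5 ± 2.85 with quizartinib in RPMI, and at 787 ± 12.6 and 595 ± 18.5 in hBMSC-CM (SD, n = 3). MYC fell with quizartinib in RPMI (log2 change -3.09) and in hBMSC-CM (-0.40), as all 10 chaperonin genes did. Of all tested genes, 39.2% and 33.7% were called lower in these comparisons. Between the media, its level was raised in hBMSC-CM, by 3.56 on the log2 scale with quizartinib and by 0.87 with vehicle. Of the chaperonin genes, 9 and 8 were called in that direction, against 35.5% and 16.6% of all tested genes. The order of groups differed in the middle step from that of the 9 genes other than CCT8. MYC was higher with quizartinib in hBMSC-CM than with vehicle in RPMI (log2 difference 0.47, edgeR adjusted p = 1.16e-08). All 10 chaperonin genes were lower in that comparison, against 31.6% of all tested genes. A part of MYC in the chaperonin changes was not tested.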
